A study of Homo sapiens with 8 samples.

Results

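The 9 genes described here encode the writers and erasers of DNA methylation and the proteins that bring the writers to DNA. They are the rows of the deposited gene table whose symbol is DNMT1, DNMT3A, DNMT3B, TET1, TET2, TET3, UHRF1, UHRF2 or TRIM28, 9 of the 30386 genes listed, each with 1 row. Messenger RNA was sequenced in endothelial cells (iEC) and in cells labelled as retinal endothelial cells (iREC). Both were differentiated from WTC-TJP1, an established line of human induced pluripotent stem cells, and both were taken at passage 1. There were 4 samples per group, lettered C, D, E and F. All samples come from a single cell line, and the labels used here give no treatment, no differentiation protocol and no statement that the samples are separate cultures, so p-values measure only the spread between these samples.

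Methylation of cytosine in CpG pairs marks silenced promoters, repeats and imprinted genes. DNMT3A and DNMT3B place the mark on unmethylated DNA. After replication DNMT1 copies it to the new strand, guided by UHRF1, which binds the half-methylated site and ubiquitinates histone H3. UHRF2 is a paralogue of UHRF1. TRIM28, also called KAP1, is the corepressor that KRAB zinc finger proteins bring to repeats and imprinted regions. The enzymes TET1, TET2 and TET3 oxidise methylcytosine, which opens a way back to plain cytosine through base excision repair or dilution at replication. DNMT3B and TET1 are known for high expression in pluripotent cells, and DNMT1 and UHRF1 for high expression in cells that replicate their DNA.

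The iEC libraries held 14877502 to 16971865 counts and the iREC libraries 13739364 to 15987839. Levels are given as CPM, counts relative to the TMM-scaled size of the library, unless FPKM (the same idea per length of the gene) is stated. All 10 endothelial markers on a fixed list were detected in every sample, the lowest being TEK at 33.5 CPM in iEC F. Their levels were not even: 6 of the 10 had an edgeR adjusted p under 0.05 between the groups, against 25.0% of all tested genes. PECAM1, CDH5, ESAM and EGFL7 were lower in iREC, and TEK and CLDN5 were higher. Of the core pluripotency markers, POU5F1 reached 1.16 CPM at most, SOX2 0.393 CPM and NANOG 0.122 CPM, and LIN28A reached 32.4 CPM in iEC and 482 CPM in iREC. The pigment epithelium marker RPE65 had at most 0.393 CPM. Sample iREC F stood apart with 4409 CPM summed over the mural and mesenchymal markers, against 588 to 1208 in the other iREC samples and 101 to 422 in iEC, and with 4934 CPM over the epithelial markers, against 302 to 1123 and 392 to 1177. Most of that epithelial sum was KRT8 (3025 CPM) and KRT18 (1538 CPM), with CDH1 at 81.6 and EPCAM at 3.3 CPM. The endothelial sum of iREC F was 4306 CPM, against 7349 to 9588 in the other iREC samples and 7325 to 9420 in iEC. Sample iEC F had the least S phase expression, 358 CPM summed over a list of 17 genes, followed by iEC E at 679.8 CPM. In bulk samples such as these, fewer cells of a type and less RNA per cell cannot be told apart.

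None of the writers, erasers or their recruiters passed the test between the groups. By edgeR's quasi-likelihood test with Benjamini-Hochberg adjustment over 15330 genes, 0 of the 9 had an adjusted p under 0.05, against 25.0% of all tested genes. DNMT3B was the only 1 of the 9 with an unadjusted edgeR p under 0.05, against 37.8% of all tested genes, and the only 1 with a fitted log2 fold change of at least 1 either way, against 20.4%. DESeq2 and limma-voom each called 1 of the 9, again DNMT3B. Of the 15330 genes, DESeq2 called 4273 and limma-voom 3773. The median log2 fold change (iREC over iEC) of the 9 genes was 0.18 and that of all tested genes 0.02. The median of the absolute values was 0.18 for the 9 and 0.39 for all tested genes. In CPM the groups did not overlap for 2 of the 9, DNMT3B and TET1, where 29.1% of all tested genes had groups that did not overlap.

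**Figure D1:**
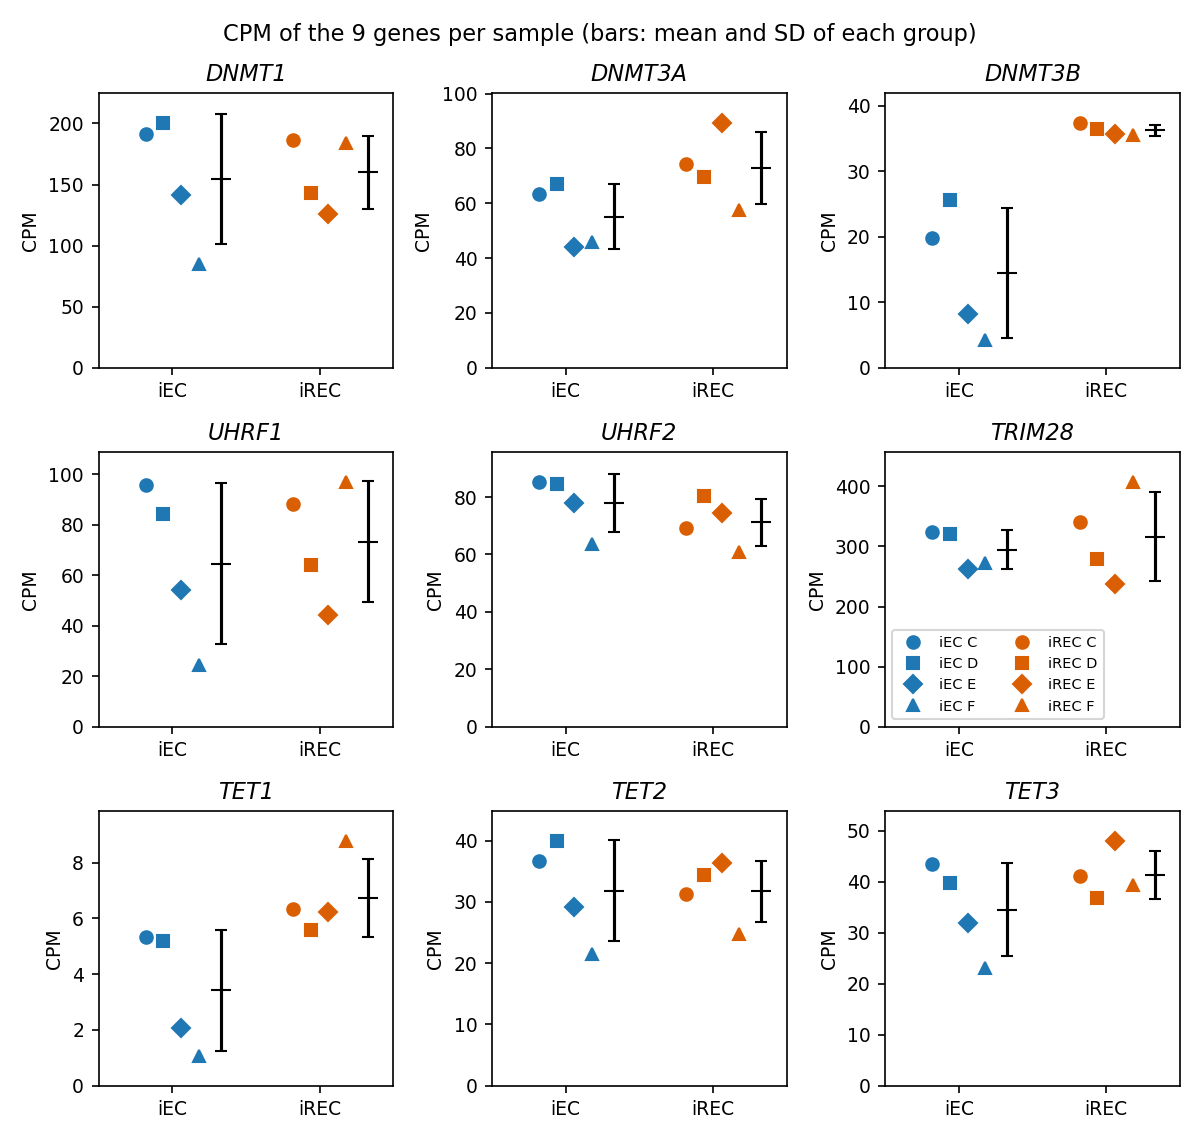
CPM of each of the 9 genes in the 4 iEC (blue) and 4 iREC (orange) samples, 1 symbol shape per replicate letter, with the mean and SD of each group in black. DNMT3B sits at 35.5 to 37.4 CPM in all 4 iREC samples and at 4.22 to 25.7 CPM in iEC, and TET1 is the other gene whose groups do not overlap.

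**Figure D2:**
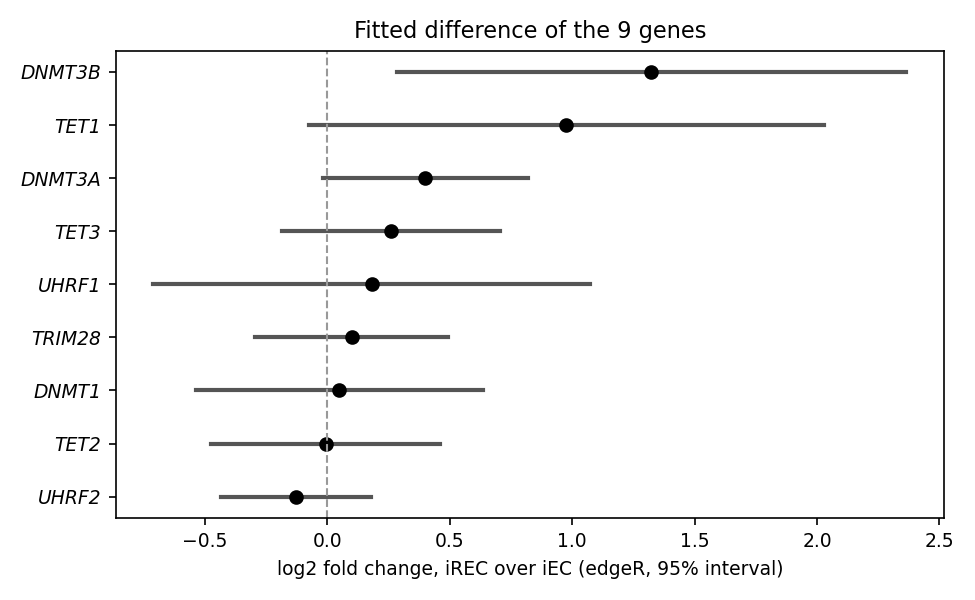
Fitted log2 fold change of iREC over iEC for each of the 9 genes (points) with its 95% interval (lines) from edgeR, ordered by size. The intervals of all genes but DNMT3B include 0, and the interval of DNMT3B runs from 0.28 to 2.36.

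Of the enzymes that write new methylation, DNMT3B differed most between the groups. DNMT3B (ENSG00000088305, GRCh38 chromosome 20, 32762385 to 32809356, plus strand) was at 19.8, 25.7, 8.23 and 4.22 CPM in iEC C, D, E and F. It was at 37.4, 36.5, 35.7 and 35.5 CPM in iREC C to F. Every iREC sample was above every iEC sample, and the highest iREC sample was 1.05-fold above the lowest, against 6.08-fold within iEC. The SD was 2.35% of the mean in iREC, below the 4.26% that counting error alone gives at the mean count of these samples, and 68.8% of the mean in iEC. The iEC mean was 14.5 ± 9.95 CPM and the iREC mean 36.2 ± 0.853 CPM (SD, n = 4). This gave a log2 fold change of 1.32 ± 0.46 (SE; 95% interval 0.28 to 2.36), with an edgeR adjusted p of 0.065, outside the threshold.

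Whether DNMT3B was called depended on the method. The authors' deposited table, in which 4950 genes have an adjusted p under 0.05, lists it with a log2 fold change of 1.32 and an adjusted p of 0.0166. Computed here from the counts, it was called by DESeq2 (adjusted p 0.0161), limma-voom (0.0209) and edgeR without a filter on low counts (0.0451). It was not called with the 3 other scalings, the stricter filter or the newer quasi-likelihood fit. Among fits that left out a sample, it was called in 1 of 8, the fit without iEC D (log2 fold change 1.76, edgeR adjusted p 0.0211). The log2 fold change was lowest without iEC F, at 1.02. Without iREC F, the sample with high mural and epithelial markers, it was 1.33 (edgeR adjusted p 0.083). Of 13 pluripotency markers on the list 7 were tested and 5 called by edgeR, against 25.0% of all tested genes. LIN28A, ZFP42, GDF3 and USP44 were higher and DPPA4 lower in iREC, where GDF3 and USP44 averaged 5.16 and 1.76 CPM. LIN28B and SALL4 were not called (edgeR adjusted p 0.84 and 0.207). The groups overlapped for LIN28A, ZFP42 and DPPA4, and limma-voom called 3 of the 7. Summed, they lay between 79.7 and 163 CPM in iEC samples and between 123 and 587 CPM in iREC samples, where LIN28A made up most of iREC F. NANOG and TDGF1 had at most 3 counts in any sample. The part of these markers in the DNMT3B and TET1 values was not tested.

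DNMT3A (ENSG00000119772, chromosome 2, 25227855 to 25342590, minus strand), the other enzyme of this kind, was at 63.3, 67.1, 44.0 and 46.0 CPM in iEC C, D, E and F and at 74.5, 69.5, 89.4 and 57.7 CPM in iREC. The iREC samples other than F were above all iEC samples. For DNMT3A the log2 fold change was 0.40 ± 0.19 (SE; 95% interval -0.019 to 0.82; edgeR adjusted p 0.15). Within each sample the level of DNMT3B was set against that of DNMT3A as a ratio of the authors' FPKM, which cancels library scaling. The ratio was 0.81, 0.993, 0.485 and 0.238 in iEC C, D, E and F and 1.30, 1.36, 1.04 and 1.60 in iREC. By the deposited gene length DNMT3B was thus below DNMT3A in all 4 iEC samples and above it in all 4 iREC samples. Per longest coding transcript the ratios were 0.201 to 0.838 in iEC and 0.875 to 1.35 in iREC, and DNMT3B was above DNMT3A in 3 of the 4 iREC samples, all but E. On either length the ratios of the groups did not overlap. Of the summed FPKM of DNMT1, DNMT3A and DNMT3B, DNMT3B held 6.81% to 17.5% in iEC and 24.2% to 27.9% in iREC, and DNMT1 64.6% to 72.7% and 46.0% to 60.1%. DNMT3A held 17.7% to 28.6% in iEC and 15.4% to 26.5% in iREC, so its share overlapped between the groups. DNMT3L, the inactive partner that stimulates both enzymes in germ cells, had 0 counts in iEC and at most 1 count in any iREC sample.

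The maintenance machinery was expressed at overlapping levels in both groups. DNMT1 (ENSG00000130816, chromosome 19, 10133345 to 10231286, minus strand) was at 191, 200.5, 142 and 84.7 CPM in iEC C, D, E and F and at 187, 143, 126 and 184 CPM in iREC. For DNMT1 the log2 fold change was 0.05 ± 0.26 (SE; 95% interval -0.54 to 0.64; edgeR adjusted p 0.912), and its sign changed without iEC F (-0.16), iREC C (-0.037) or iREC F (-0.027). S1PR2, which overlaps DNMT1 on the same strand, had at most 37 counts. UHRF1 (ENSG00000276043, chromosome 19, 4903080 to 4962154, plus strand) was at 95.8, 84.1, 54.2 and 24.6 CPM in iEC C, D, E and F and at 88.1, 64.1, 44.1 and 97.0 CPM in iREC. In both groups the spread was wide, 3.90-fold between the highest and lowest sample in iEC and 2.20-fold in iREC. The log2 fold change of UHRF1 was 0.18 ± 0.40 (SE; 95% interval -0.71 to 1.07; edgeR adjusted p 0.774), and it was -0.091 without iEC F.

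UHRF2 (ENSG00000147854, chromosome 9, 6413151 to 6507054, plus strand) varied least of the 9 over all samples, with an SD of 12.3% of the mean. It was at 85.3, 84.5, 77.9 and 63.5 CPM in iEC C, D, E and F and at 69.4, 80.2, 74.6 and 61.0 CPM in iREC, with a log2 fold change of -0.13 ± 0.14 (SE; 95% interval -0.43 to 0.18; edgeR adjusted p 0.537). The FPKM ratio of UHRF1 to UHRF2 ran from 0.746 in iEC F to 2.16 in iEC C and from 1.14 in iREC E to 3.07 in iREC F. TRIM28 (ENSG00000130726, chromosome 19, 58544091 to 58550722, plus strand) was at 323.5, 320.8, 263 and 272 CPM in iEC C, D, E and F and at 340.0, 278, 238 and 407.5 CPM in iREC. Both the highest and the lowest TRIM28 value were in iREC, in F and E. Its log2 fold change was 0.10 ± 0.18 (SE; 95% interval -0.29 to 0.49; edgeR adjusted p 0.715), and -0.048 without iREC F.

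Of the erasers, TET1 was the least abundant and the only 1 whose groups did not overlap. TET1 (ENSG00000138336, chromosome 10, 68560656 to 68694482, plus strand) was at 5.33, 5.18, 2.07 and 1.07 CPM in iEC C, D, E and F, from 82, 82, 35 and 15 counts. It was at 6.35, 5.57, 6.23 and 8.78 CPM in iREC C to F, from 97, 78, 102 and 134 counts. The gap between the groups was narrow, since iEC C at 5.33 CPM lay just under iREC D at 5.57 CPM. The log2 fold change was 0.98 ± 0.47 (SE; 95% interval -0.076 to 2.03; edgeR adjusted p 0.16). It was called in none (0) of the 17 alternatives, in which the adjusted p ran from 0.0783 by limma-voom to 0.297, and without iREC F, where TET1 was highest, the log2 fold change was 0.82.

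TET2 and TET3 were more even. TET2 (ENSG00000168769, chromosome 4, 105145875 to 105279816, plus strand) was at 36.7, 40.0, 29.2 and 21.5 CPM in iEC C, D, E and F and at 31.3, 34.3, 36.3 and 24.8 CPM in iREC. Its log2 fold change was -0.007 ± 0.21 (SE; 95% interval -0.48 to 0.46; edgeR adjusted p 0.985), and the sign changed in 7 of the 17 alternatives. TET3 (ENSG00000187605, chromosome 2, 73986404 to 74108176, plus strand) was at 43.5, 39.7, 32.0 and 23.0 CPM in iEC C, D, E and F and at 41.1, 36.8, 48.0 and 39.4 CPM in iREC. The log2 fold change of TET3 was 0.26 ± 0.20 (SE; 95% interval -0.19 to 0.70; edgeR adjusted p 0.375). Within the TET family TET3 held a nearly constant share of the summed FPKM, 52.0% to 56.8% in iEC and 52.8% to 57.6% in iREC. TET1 held 3.51% to 9.05% in iEC and 9.88% to 16.7% in iREC. Per longest coding transcript the share of TET3 was smaller, 43.7% to 47.7% in iEC and 44.85% to 50.5% in iREC. TET2 then held 45.1% to 49.8% in iEC and 35.7% to 46.8% in iREC.

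Per length, TRIM28 had the highest level of the 9 genes in every sample and TET1 the lowest. In iEC the mean FPKM deposited by the authors fell in the order TRIM28 (72.5), DNMT1 (15.6), UHRF1 (12.4), UHRF2 (7.77), DNMT3A (4.54), DNMT3B (3.07), TET3 (2.78), TET2 (1.91) and TET1 (0.362). Sample ranges did not overlap between TRIM28 and DNMT1, between UHRF2 and DNMT3A and between TET2 and TET1, and all other neighbours overlapped. In iREC the order was TRIM28 (77.1), DNMT1 (16.1), UHRF1 (14.0), DNMT3B (7.69), UHRF2 (7.06), DNMT3A (5.95), TET3 (3.31), TET2 (1.89) and TET1 (0.713). On this scale DNMT3B stood below DNMT3A in iEC and above UHRF2 in iREC, where its range overlapped that of UHRF2. DNMT1 and UHRF1, and UHRF2 and DNMT3A, were the other neighbours whose ranges overlapped in iREC. The deposited length counts all annotated exons of a gene, for example 9919 bases for UHRF2 where its longest coding transcript in GENCODE 29 has 3452. With the length of that transcript instead, UHRF2 stood above UHRF1 in both groups (22.3 and 14.8 in iEC, 20.3 and 16.8 in iREC) and TET2 just above TET3 in iEC (3.10 and 2.998), so those neighbours have no settled order. UHRF2 was then also far above DNMT3B in iREC (20.3 and 8.22), so the place of DNMT3B above UHRF2 is lost. By the group means DNMT3B stayed below DNMT3A in iEC (3.28 and 5.75) and above it in iREC (8.22 and 7.52).

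**Figure D3:**
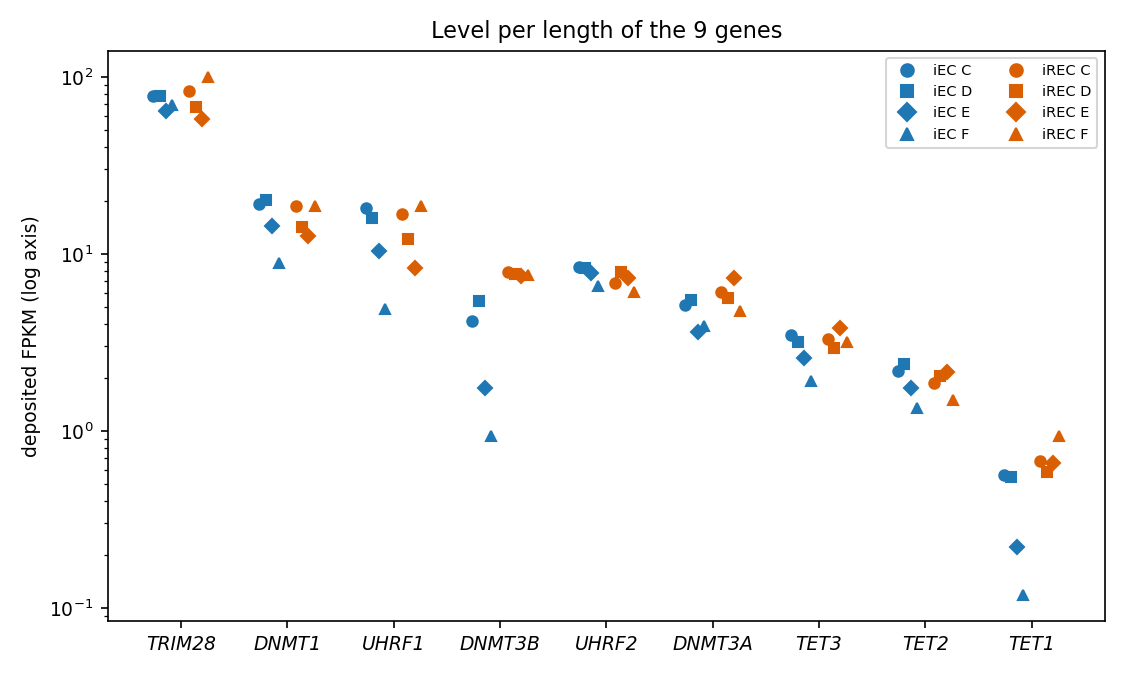
FPKM deposited by the authors for the 9 genes on a log axis, ordered by the iREC mean, with iEC samples in blue on the left and iREC samples in orange on the right of each position. The iREC mean falls from 77.1 for TRIM28 to 0.713 for TET1, and the DNMT3B samples of iREC lie on top of each other, between 7.53 and 7.93.

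UHRF1 followed the S phase genes across samples of both groups, whereas DNMT3B went with them in iEC and was level in iREC. The 17 S phase genes, among them the helicase subunits MCM2 to MCM7 and the licensing factors CDC6 and CDT1, summed to 1253, 1274, 679.8 and 358 CPM in iEC C, D, E and F and to 1215, 972, 689 and 1299 CPM in iREC. By edgeR 0 of 17 were called between the groups, with 0 at an unadjusted p under 0.05 and 0 called by DESeq2 or limma-voom, and their median log2 fold change was 0.30. The 12 mitosis genes also had 0 called by each of the 3 tools, 0 at an unadjusted p under 0.05 by edgeR and a median of 0.36. Per 1000 CPM of the S phase list, UHRF1 was at 76.4, 66.0, 79.7 and 68.6 CPM in iEC C, D, E and F and at 72.6, 65.9, 64.0 and 74.7 CPM in iREC. The SD of UHRF1 over the 8 samples was 38.5% of the mean before this scaling and 7.99% after it. For DNMT1 the same scaling took the SD from 25.6% to 19.7% of the mean, and for TET1 from 48.3% to 39.7%. It took that of DNMT3B from 52.7% to 53.7%, and for TRIM28, TET2, TET3, UHRF2 and DNMT3A the SD also became larger. Within a group this could differ: the SD of TRIM28 went from 23.4% to 9.78% in iREC and from 10.8% to 57.6% in iEC. That of DNMT1 went from 18.9% to 11.8% in iREC and from 34.4% to 21.6% in iEC.

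On the same scale DNMT3B was at 15.8, 20.1, 12.1 and 11.8 CPM in iEC C, D, E and F and at 30.8, 37.5, 51.8 and 27.3 CPM in iREC. The groups stayed apart, with the mean log2 value 1.29 higher in iREC. Within iEC the scaling took the SD of DNMT3B from 68.8% to 26.1% of the mean, and within iREC from 2.35% to 29.4%. TET1 per 1000 CPM of the S phase list was 4.25, 4.07, 3.05 and 2.999 CPM in iEC C, D, E and F and 5.22, 5.73, 9.04 and 6.75 CPM in iREC, also apart, with the mean log2 value 0.88 higher in iREC. In iEC, DNMT3B and TET1 were high in C and D, lower in E and lowest in F, as were the S phase genes. In iREC the S phase sum of E was the lowest, 689 CPM against 972 to 1299, while DNMT3B was level. These are descriptions over samples, and the part of proliferation in the DNMT3B difference was not tested.

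**Figure D4:**
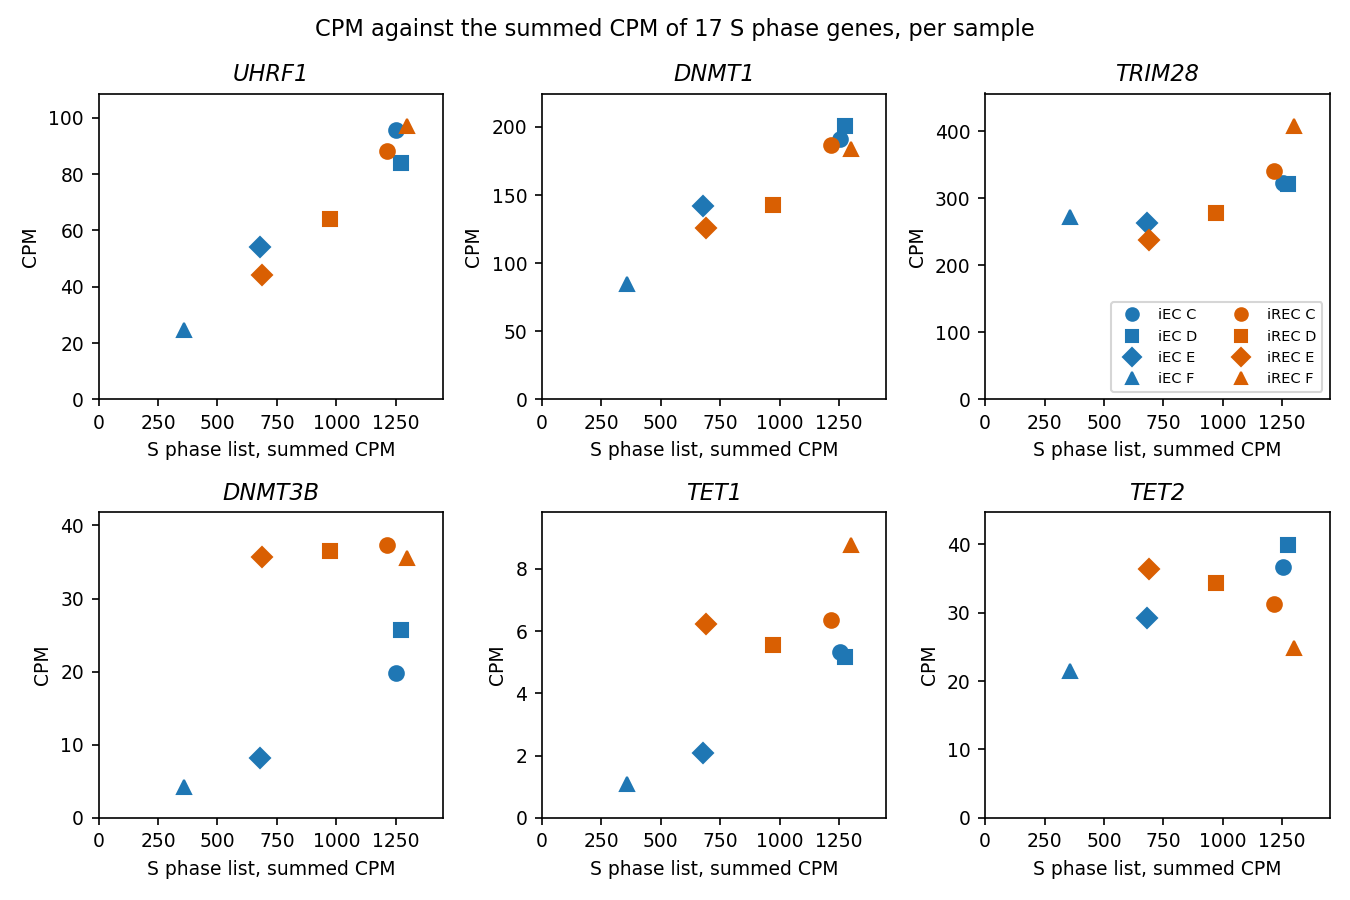
CPM of 6 of the genes (vertical) against the summed CPM of the 17 S phase genes (horizontal) in each of the 8 samples, iEC in blue and iREC in orange. UHRF1 goes up with the S phase sum in both groups, and DNMT3B is level at 35.5 to 37.4 CPM in iREC at S phase sums from 689 to 1299 CPM.

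The promoter of UHRF1 was compared with those of the other genes for the binding words of E2F, the transcription factor family that drives S phase genes. The 250 bases before each RefSeq transcript start (GRCh38.p14) were searched on both strands for TTTCCCGC, TTTCGCGC, TTTGCCGC and TTTGGCGC. Of the 9 genes 8 were matched, all but TRIM28, with 19 starts. A word was held by 2 of the starts, both of them in UHRF1, and UHRF1 start 3 held none. UHRF1 start 1 (chr19:4909251-4909500, plus strand) has TTTCCCGC on the opposite strand, beginning 14 bases before the start, and start 2 (chr19:4909894-4910143, plus strand) has TTTCGCGC 160 bases before the start. DNMT1 (chr19:10194954-10195203, minus strand) and the 1 DNMT3B start in the table (chr20:32779602-32779851, plus strand) are shown for contrast and held no word. All 4 windows lie inside the listed bounds of their genes, downstream of the outermost annotated start. The DNMT3B window begins at 32779602, where the gene begins at 32762385. DNMT1, on the minus strand, has its outermost start at 10231286, and its window ends at 10195203. The bases before these outermost starts were not searched, so the lack of a word holds only for the windows shown. The sequences read 5′ to 3′ along the gene, and capitals mark the word.
UHRF1 start 1: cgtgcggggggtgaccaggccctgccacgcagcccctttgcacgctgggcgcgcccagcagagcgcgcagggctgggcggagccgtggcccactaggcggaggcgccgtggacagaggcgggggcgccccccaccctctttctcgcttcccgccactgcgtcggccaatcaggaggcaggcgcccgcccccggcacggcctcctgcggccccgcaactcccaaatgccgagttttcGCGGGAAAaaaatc
UHRF1 start 2: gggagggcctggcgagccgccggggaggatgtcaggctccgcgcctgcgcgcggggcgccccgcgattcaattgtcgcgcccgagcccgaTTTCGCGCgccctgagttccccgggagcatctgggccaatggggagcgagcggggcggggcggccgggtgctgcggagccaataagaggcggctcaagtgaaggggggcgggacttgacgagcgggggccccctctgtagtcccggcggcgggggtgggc
DNMT1: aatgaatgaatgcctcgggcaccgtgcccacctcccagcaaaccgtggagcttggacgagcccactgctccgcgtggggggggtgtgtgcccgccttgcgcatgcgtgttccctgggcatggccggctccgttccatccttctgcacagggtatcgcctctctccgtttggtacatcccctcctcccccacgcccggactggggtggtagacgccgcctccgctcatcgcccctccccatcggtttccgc
DNMT3B: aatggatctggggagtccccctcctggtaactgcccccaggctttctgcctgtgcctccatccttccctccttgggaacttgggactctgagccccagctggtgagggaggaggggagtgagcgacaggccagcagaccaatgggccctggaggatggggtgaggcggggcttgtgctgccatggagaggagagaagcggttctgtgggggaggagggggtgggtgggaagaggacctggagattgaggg
A word was present at 2.79% of all 35116 promoters of this length in the table, and at some start of 3.4% of all 27305 symbols. In the S phase list 7 of the 14 matched genes held a word at some start, and in the mitosis list 1 of 10. The windows also differed in CpG content. The DNMT3B window, which lies inside the gene, held 3 CpG pairs, and 77.1% of all promoters had at least as many. UHRF1 start 2 held 32 and DNMT1 21. CpG pairs before the outermost start of DNMT3B were not counted. A match is a description of the letters, not a bound site.

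Around the 9 genes, 100 other genes on lists of partners, cofactors and the cell cycle were tested, and 13 were called by edgeR, 7 higher and 6 lower in iREC. That is 13.0%, against 25.0% of all tested genes. Of the 13, 5 were called in every alternative that tested them, namely IDH1, CXXC5, AHCYL2, MAT2B and GADD45G. Without a filter on low counts the calls of EHMT2, SETDB1, TDG, NEIL2, IDH3A and ZBTB38 were lost.

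**Figure D5:**
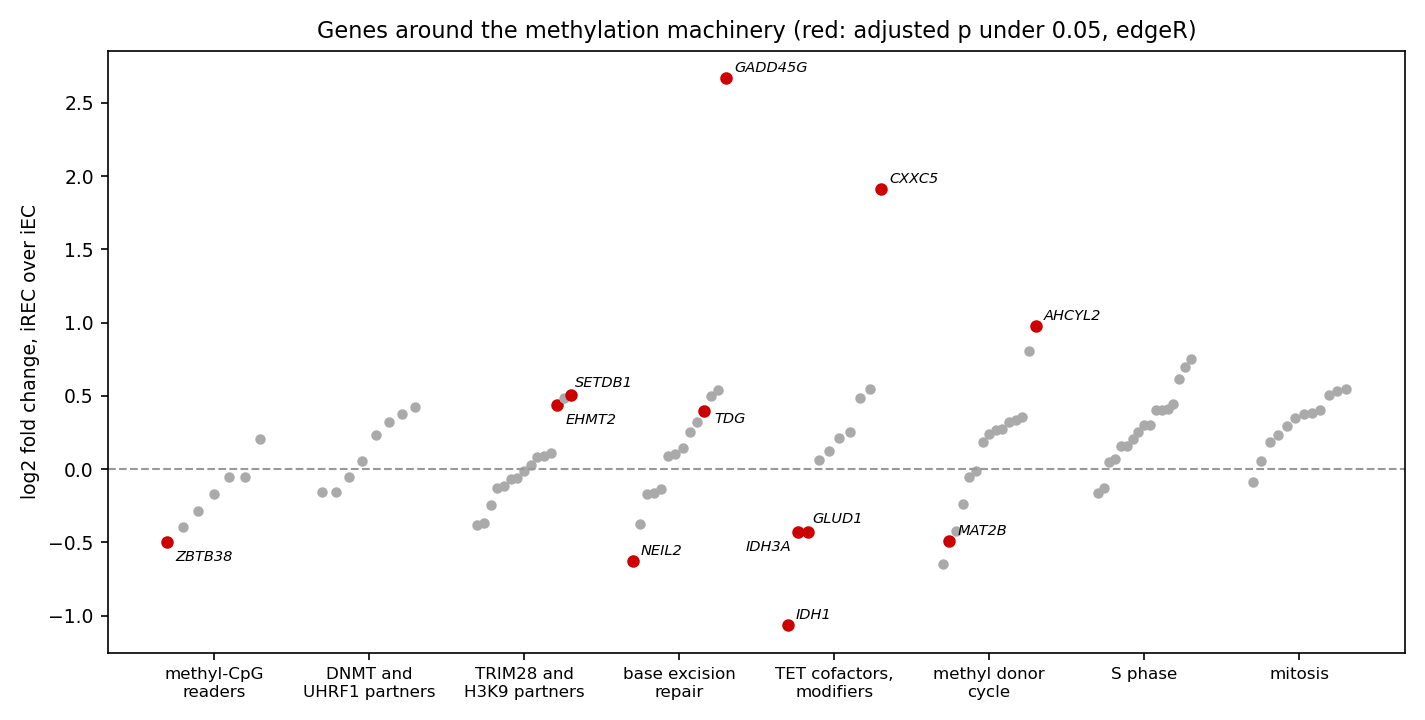
Fitted log2 fold change of iREC over iEC for the tested genes of 8 lists whose results are reported, 1 point per gene, sorted by size within a list, with genes at an edgeR adjusted p under 0.05 in red and named. All points of the S phase and mitosis lists and of the DNMT and UHRF1 partners are grey, and the list of TET cofactors and modifiers has 4 red points, 3 of them below 0.

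Genes that feed or modify the TET enzymes held 4 calls among 10 tested, 1 higher and 3 lower, with a list median of 0.17. TET enzymes need 2-oxoglutarate, which IDH1 makes in the cytosol. IDH1 was at 296.5, 267, 240.5 and 277 CPM in iEC C, D, E and F and at 163, 116, 105 and 132 CPM in iREC. The groups were far apart, and IDH1 fell by 1.07 ± 0.15 (SE) on the log2 scale (edgeR adjusted p 0.0011). Of the mitochondrial enzymes that make 2-oxoglutarate, GLUD1 averaged 182.5 ± 8.43 CPM in iEC and 136 ± 10.6 CPM in iREC (SD, n = 4), and it fell with an edgeR adjusted p of 0.0139. IDH3A averaged 39.2 ± 5.02 and 29.1 ± 2.05 CPM and fell with an edgeR adjusted p of 0.0409. The call for GLUD1 was lost without iREC D (largest edgeR adjusted p over its alternatives 0.0535). That for IDH3A was lost in 7 of the 8 fits that left out a sample, all but the fit without iEC F. The IDH3A call was also lost with upper quartile or library size scaling. Its largest edgeR adjusted p over the alternatives was 0.0962, without iREC D. IDH2, the mitochondrial homologue of IDH1, was at 76.5 to 121 CPM in iEC and 86.6 to 131 CPM in iREC (edgeR adjusted p 0.683). CXXC5, a CXXC zinc finger protein that has been described as a regulator of TET2, rose from 7.87, 9.42, 5.27 and 7.09 CPM in iEC to 12.6, 28.1, 29.6 and 41.0 CPM in iREC C to F. Its log2 fold change was 1.91 ± 0.34 (SE, edgeR adjusted p 0.00356).

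In base excision repair, which removes oxidised methylcytosine, 3 of 14 tested genes were called, 2 higher and 1 lower (median 0.12). TDG, the glycosylase that cuts out the oxidised bases, rose with an edgeR adjusted p of 0.0445, averaging 54.2 ± 6.11 CPM in iEC and 71.3 ± 6.73 CPM in iREC (SD, n = 4). The groups did not overlap for TDG, but its call was lost whichever of the 8 samples was left out and with DESeq2 or library size scaling. Its largest edgeR adjusted p over the alternatives was 0.121, without a filter on low counts. NEIL2, another glycosylase, averaged 13.4 ± 2.43 CPM in iEC and 8.71 ± 1.18 CPM in iREC samples and fell (edgeR adjusted p 0.0424), a call lost without iEC D, E or F or without iREC C, D or E (largest 0.116). GADD45G, a stress gene linked to demethylation, rose by 2.67 ± 0.48 (SE) on the log2 scale (edgeR adjusted p 0.00369) from a level near the detection limit, 0.269 ± 0.0923 CPM in iEC with at most 6 counts per sample, to 1.77 ± 0.799 CPM in iREC.

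In the cycle that supplies S-adenosylmethionine, the methyl donor of all DNA methyltransferases, 3 of 16 tested genes were called, 2 higher and 1 lower (median 0.25). MAT2B, the regulatory subunit of the synthase, was at 75.8, 79.0, 83.9 and 81.5 CPM in iEC C, D, E and F and at 50.9, 58.6, 57.5 and 60.6 CPM in iREC. It fell by 0.49 ± 0.10 (SE) on the log2 scale, with an edgeR adjusted p of 0.00786. MAT2A, the catalytic subunit, was at 174 to 296 CPM in iEC and 284 to 398 CPM in the iREC samples (not called, edgeR adjusted p 0.194). AHCYL2, a relative of the enzyme that clears S-adenosylhomocysteine, was at 16.0 to 21.9 CPM in iEC and 27.4 to 47.3 CPM in the iREC samples, and it rose by 0.97 ± 0.19 (SE) on the log2 scale (edgeR adjusted p 0.00556).

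Among TRIM28 and H3K9 methylation partners, 2 of 15 tested genes were called, both higher in iREC (median -0.01). SETDB1, the histone methyltransferase that TRIM28 recruits, was at 27.4, 26.7, 24.1 and 26.0 CPM in iEC and 33.6, 37.0, 43.2 and 34.2 CPM in iREC C to F. All iREC samples were above all iEC samples, and SETDB1 rose by 0.51 ± 0.12 (SE) on the log2 scale (edgeR adjusted p 0.0166). EHMT2, another H3K9 methyltransferase, averaged 39.8 ± 4.65 CPM in iEC and 53.8 ± 2.91 CPM in iREC (SD, n = 4) and also rose (edgeR adjusted p 0.028). Leaving out iEC E or iREC D ended both calls, and leaving out iEC C, iREC C, iREC E or iREC F ended that of EHMT2. The largest edgeR adjusted p of EHMT2 in these fits was 0.073, without iEC E. Without a filter on low counts it was 0.0924. ZFP57, the zinc finger protein that brings TRIM28 to imprinted regions, had 0 counts in every iEC sample, which allows up to 0.178 to 0.215 CPM (3 counts per library), and at most 0.721 CPM in iREC. It was below the filter.

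Of 8 tested methyl-CpG readers 1 was called (median -0.11). ZBTB38, a zinc finger protein that binds methylated DNA, fell (edgeR adjusted p 0.0434) from 46.6 to 68.6 CPM in the iEC samples to 35.8 to 48.7 CPM in the iREC samples, which overlap. Its call was lost with upper quartile scaling and in 6 of the 8 fits that left out a sample, those without iEC C, E or F or iREC D, E or F (largest 0.126). Of the 8 tested partners of DNMT and UHRF1, among them the remodeller HELLS and its activator CDCA7, 0 were called by edgeR, DESeq2 or limma-voom, with 0 at an unadjusted p under 0.05 by edgeR (median 0.14). HELLS, like the S phase sum, was low in iEC E and F, at 34.6, 29.8, 17.2 and 5.87 CPM in iEC C, D, E and F. As a readout of methylation-dependent silencing, a list of 12 germline genes whose promoters are methylated in somatic cells was followed. Of these 4 were listed in the table, SYCP1, SYCP3, HORMAD1 and STK31. They reached at most 0.55 CPM in any sample and none (0) passed the filter, so no difference was detectable at this depth.

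The genes most like each of the 9 were found by the root-mean-square difference of log2 CPM over the 8 samples, after each gene was centred on its own mean, among the 9525 protein-coding genes that averaged 10 CPM or more. For DNMT3B these were BARD1, the partner of BRCA1 in DNA repair (0.24), and CDC7, a kinase that fires replication origins (0.28), where DNMT3B itself varied by 1.09 about its mean. BARD1 was at 13.5, 14.7, 4.79 and 3.22 CPM in iEC C, D, E and F and at 23.7, 23.3, 15.0 and 20.6 CPM in iREC. CDC7 was at 6.80 to 25.5 CPM in iEC and 28.6 to 42.0 CPM in iREC. For TET1 they were MYBL2 (0.23) and CDKN3 (0.24), and for UHRF1 FEN1 (0.10) and POC1A (0.12), where UHRF1 varied by 0.64. For DNMT1 they were NSD2 (0.081) and H2AFX (0.094), for DNMT3A NCOA2 (0.067) and SIKE1 (0.085), and for TRIM28 SLC5A6 (0.061) and SAP130 (0.083). For TET2 they were SLF2 (0.075) and RNF111 (0.086), for TET3 NUFIP2 (0.069) and CHD1 (0.071), and for UHRF2 UPF2 (0.048) and IKZF5 (0.056).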

How the data were processed

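RNA was selected on poly-T beads and libraries carried dUTP in the second strand, per the labels' protocols. The submitters' processing notes name hg38, fastp and HISAT2 2.0.5, and the counting program, its strand setting and its annotation are not given in the sources used here. The authors deposited a table of 30386 genes with raw read counts per sample, per the file headers. Its normalized signal, deposited by the authors, is each count over a size factor that is constant within a sample. The FPKM deposited by the authors equals that signal divided, apart from fixed units, by the listed gene length and by 15383181, the same total for all samples. The authors also deposited a log2 fold change, a p-value and an adjusted p-value per gene, with no test named in the header. The table's lowest total was 2 counts per gene. Identifiers and coordinates of every gene matched GENCODE 29 (GRCh38), counted from 1.

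The fits and CPM values were computed from the counts. Orders per length, FPKM ratios and shares within the DNMT and TET families were taken from the deposited FPKM. Genes kept by filterByExpr (15330) were scaled by TMM and tested with the quasi-likelihood F-test of edgeR 4.0.16 (R 4.3.3; group as the only term; 8 samples), with Benjamini-Hochberg adjustment and a threshold of 0.05. The test was tested on simulated data. Alternatives were other scalings (DESeq2 size factors, upper quartile, library size), a stricter filter (1 CPM or more throughout 1 group, and 50 counts on average) or none, DESeq2 1.42.0, limma-voom (limma 3.58.1), the newer quasi-likelihood fit, the replicate letter as a block, and each sample left out in turn. FPKM orders were also taken per longest coding transcript, an alternative chosen after seeing the data. Replicates differed by more than sampling noise. The named genes are the 9, up to 3 called genes each way per list, and the 2 nearest genes by root-mean-square difference. Other genes with values (MAT2A, IDH2, HELLS, DNMT3L, ZFP57, the 4 germline genes) were chosen after their values were seen. Some genes counted in the lists are not reported here. The members, lists and tests were chosen with earlier results of these data known. Promoter sequences are from RefSeq.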

Additional observations from a re-analysis of the deposited data

How the results depend on the processing

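The count of called genes, 3829, ran from 3281 to 4991 over the alternatives with all samples and from 2660 (without iREC D) to 4214 (without iREC F) when a sample was left out. The number of the 9 genes called was 0, and it was 1 (DNMT3B) without a filter, with DESeq2, with limma-voom and with the replicate block (adjusted p 0.0427), and 0 to 1 when a sample was left out. Of the 13 calls among partner and cofactor genes, the replicate block gave 7, and leaving out a sample gave 5 (without iREC D) to 13. The labels do not state that the replicate letters pair the samples. The correlation of deviations between samples of the same letter, across 9779 genes, was 0.215 for C, -0.109 for D, -0.111 for E and 0.206 for F. Between different letters it ran from -0.275 (iEC D and iREC F) to 0.237 (iEC D and iREC C). Whether the letters pair the samples cannot be settled from these values. With the block, 3334 genes were called. The TET2 difference, near 0, changed sign with upper quartile scaling (0.030), the stricter filter (0.023), limma-voom (0.012) and the replicate block (0.017), and without iEC C (0.061), iEC D (0.12) or iREC F (0.092). The sign also changed for DNMT1 without iEC F (-0.16), iREC C (-0.037) or iREC F (-0.027), for UHRF1 without iEC F (-0.091) and for TRIM28 without iREC F (-0.048), in no case with a call, and over the fits without a sample the highest values were 0.198 for DNMT1, 0.428 for UHRF1 and 0.215 for TRIM28, and the lowest for TET2 was -0.156. In the order by FPKM, 9 of the 9 genes had their place by construction, 7 to 9 did in iEC when a sample was left out (7 without iEC D, where TET3 passed DNMT3B), and 5 in iEC and 6 in iREC did per longest coding transcript. All ratios between genes stayed within 1 SD of the replicates. The cause of these changes was not tested. TET1 rests on as few as 15 counts in a sample, where counting error is widest.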
